A study of Mus musculus with 42 samples.

Results

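The 58 genes described here encode subunits of the 3 nuclear RNA polymerases, of Mediator, and the general transcription factors that load the polymerases onto promoters. They were chosen by symbol alone, as every row whose name starts with Polr1, Polr2, Polr3, Gtf2 or Gtf3, or is Med or Taf followed by a number, among the 15737 rows of the deposited mouse embryo table with a symbol listed once. No expression value entered the choice. In the GENCODE M21 annotation 104 protein-coding genes carry such names, and Polr2a, Polr3a, Med1, Med12, Med13, Med14 and Taf1 are among those not analysed here. The rows hold 0% of the coding gene names of chromosomes 12 to 19, X and Y and 15.6% of those of chromosome 11. For chromosomes 1 to 10 they hold 68.0% to 82.4%, so the members and the background of all genes come from part of the genome. The 58 comprised 4 genes of RNA polymerase I (Pol I), 7 of Pol II, 6 of Pol III, 16 of Mediator, 8 Gtf2 genes, 7 Gtf3 genes and 10 Taf genes.

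Pol I transcribes the large ribosomal RNA, Pol II transcribes messenger RNA, and Pol III transcribes transfer RNA and the small ribosomal RNA. General factors recognise the promoter and open the DNA, TFIID with its TBP-associated factors (Taf proteins) binds first at Pol II promoters, and Mediator carries signals from enhancer-bound activators to Pol II. The mouse embryo starts transcription from its own genome in a minor wave that extends into the early 2-cell stage and a major wave at the late 2-cell stage, while transcripts stored in the egg are degraded.

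Embryos came from superovulated ICR females mated to ICR males and were collected at the early 2-cell stage (34 h after human chorionic gonadotropin), the late 2-cell stage (48 h) and the 4-cell stage (58 h). Late 2-cell and 4-cell embryos were controls, were treated with FK866, an inhibitor of the NAD+ salvage enzyme NAMPT, or were given FK866 with nicotinamide mononucleotide (NMN), the product of that enzyme. At the late 2-cell stage embryos also received trichostatin A (TSA), an inhibitor of histone deacetylases, or had the NAD+-dependent deacetylase Sirt1 knocked down by injecting zygotes with siRNA, Trim21 mRNA and a SIRT1 antibody. The labels call every embryo wild type and the controls untreated, whereas the methods of the study give the inhibitor controls the vehicle dimethyl sulfoxide. For the knockdown the methods name injection of scrambled siRNA with Trim21 mRNA as the control. The deposited columns hold a single late 2-cell control, so any part of the injection in the Sirt1 difference cannot be told apart. Each library was made from a small pool of whole embryos, so fewer cells and less RNA per cell cannot be told apart.

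Expression was deposited as FPKM, fragments scaled by exon length and by mapped reads, in 9 columns with 1 column per group. Fixed steps in the low values allowed 16 libraries to be separated: 2 in each of 7 columns and 1 in each of those headed 4-cell FK866 and 4-cell FK866-NMN, for which the labels list 2 samples. Library totals ran from 3169677 to 10003481 reads. Within a column the library with the larger total is called A and the other B, and nothing ties either to a replicate number or says that libraries came from separate collections, so p-values measure only the spread between these libraries. The libraries could be separated for 57 members, Taf1a being the exception. The 9 of 11 listed 2-cell stage markers with a row (genes of the Zscan4 cluster, Zfp352, Duxf3 and Usp17lc) summed to 11.3 to 42.0 FPKM in the 6 libraries of the columns headed late 2-cell TSA, late 2-cell Sirt1 and 4-cell control, and to 128 to 574 FPKM in every other library. Duxf3 could not be separated in the late 2-cell control, FK866, FK866-NMN and headed late 2-cell TSA columns, so the sums of those libraries hold 8 markers. It had 2.1 FPKM per library at most there. The 5 of 10 cumulus and granulosa cell markers with a row summed to 8.39 FPKM at most.

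The names of 5 columns are in doubt. Within a tolerance of 0.01%, all 84 values compared for 4-cell control in the supplementary tables equalled the column headed late 2-cell TSA, all 84 for 4-cell FK866 equalled the column headed late 2-cell Sirt1, and all 84 for 4-cell FK866-NMN equalled the column headed 4-cell control. By sign agreement the column headed 4-cell FK866-NMN would be late 2-cell Sirt1, and by elimination alone that headed 4-cell FK866 would be late 2-cell TSA. The study's list of genes changed by TSA was not compared. In the part of the Sirt1 list available, signs of change against the late 2-cell control agreed for 773 of 821 genes in the column headed 4-cell FK866-NMN. They agreed for 703 in late 2-cell FK866, 684 in early 2-cell and 442 in the column headed late 2-cell Sirt1. Sirt1 was at 32.4 and 73.1 FPKM in the column headed late 2-cell Sirt1, 86.6 and 66.2 FPKM in the late 2-cell control, 7.61 FPKM in the column headed 4-cell FK866 and 11.3 FPKM in the column headed 4-cell FK866-NMN. The early 2-cell libraries had 13.5 and 6.18 FPKM of Sirt1, so low values were not limited to the columns in doubt. The 5 columns in doubt are therefore called by their headers, with both namings given. The late 2-cell control, FK866 and FK866-NMN columns carry the same name in both. For early 2-cell no values of the supplementary tables were compared, so that column is named by its header alone.

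Among the members on which the results turn, Med29 had the largest rise on the log2(FPKM + 1) scale from the early to the late 2-cell stage. Gtf3c4 is a Pol III factor that also rose, and Gtf2b was the 1 member that limma called lower there. Polr2m differed most between the late 2-cell control and the columns headed late 2-cell TSA, late 2-cell Sirt1 and 4-cell control. Promoter sequences of these 4 members are shown. Each runs 5′ to 3′ on the gene's own strand from 250 bases before to 50 bases after the RefSeq transcription start on GRCm38.p6, and capitals mark matches to any of the motifs listed after them, on either strand.
Med29, chr7:28392641-28392940, minus strand: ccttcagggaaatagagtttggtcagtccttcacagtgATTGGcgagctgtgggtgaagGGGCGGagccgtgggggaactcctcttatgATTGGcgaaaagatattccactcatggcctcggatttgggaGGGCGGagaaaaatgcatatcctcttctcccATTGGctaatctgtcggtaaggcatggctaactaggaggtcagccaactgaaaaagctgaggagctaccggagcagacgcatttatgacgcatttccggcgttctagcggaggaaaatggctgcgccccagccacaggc
Gtf3c4, chr2:28840311-28840610, minus strand: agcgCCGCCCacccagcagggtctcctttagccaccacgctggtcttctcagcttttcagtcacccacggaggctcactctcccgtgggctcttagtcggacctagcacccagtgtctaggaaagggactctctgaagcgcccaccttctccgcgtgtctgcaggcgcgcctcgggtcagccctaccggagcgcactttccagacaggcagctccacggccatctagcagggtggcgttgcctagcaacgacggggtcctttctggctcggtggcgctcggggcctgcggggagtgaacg
Gtf2b, chr3:142764997-142765296, plus strand: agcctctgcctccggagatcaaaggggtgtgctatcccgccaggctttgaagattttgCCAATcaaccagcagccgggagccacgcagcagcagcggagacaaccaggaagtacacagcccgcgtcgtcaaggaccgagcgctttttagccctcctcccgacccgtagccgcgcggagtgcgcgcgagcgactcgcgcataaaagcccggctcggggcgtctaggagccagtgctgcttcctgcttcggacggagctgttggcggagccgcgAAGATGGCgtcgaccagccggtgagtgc
Polr2m, chr9:71485934-71486233, minus strand: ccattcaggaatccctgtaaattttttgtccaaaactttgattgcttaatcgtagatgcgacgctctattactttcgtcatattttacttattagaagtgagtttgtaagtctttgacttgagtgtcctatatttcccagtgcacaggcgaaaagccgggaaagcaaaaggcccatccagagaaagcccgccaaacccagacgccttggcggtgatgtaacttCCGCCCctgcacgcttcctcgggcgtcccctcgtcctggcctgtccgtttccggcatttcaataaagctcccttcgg
The motifs searched were GGGCGG (the GC box bound by Sp1), CCGGAAGT (a site of ETS factors), CCAAT (the CCAAT box), TATAAA (the TATA box), AAGATGGC (a site of YY1), GGATTA (a site of paired-type homeobox factors) and the palindromic NRF1 site, none of which contains another. The Med29 window holds the GC box and the CCAAT box, those of Gtf3c4 and Polr2m hold the GC box, and that of Gtf2b holds the CCAAT box and the YY1 site. Of the 55 members with a RefSeq promoter, 34 (61.8%) held the GC box against 35.9% of 27025 genes, and 12 (21.8%) held the ETS site against 4.0%. These sides were not picked alike. A member has the start nearest its annotated gene start, and the 27025 genes have their first listed start, whatever their type or expression. The shares therefore cannot show a trait particular to the members. The shares were 38.2% of members and 37.9% of genes for the CCAAT box, and 12.7% and 14.2% for the TATA box. They were 5.45% and 2.88% for the YY1 site, 9.09% and 7.16% for the homeobox site, and 0 members and 0.977% of genes for the NRF1 site. Among the 15 members that limma called higher at the late 2-cell stage, 66.7% held the GC box and 20.0% the ETS site.

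From the early to the late 2-cell stage, which brackets the major wave of genome activation, transcripts of the machinery rose far more often than they fell. Of 57 members tested, limma on log2(FPKM + 1) with a Benjamini-Hochberg adjusted p under 0.05 called 15 higher and 1 lower, where 10.8% of all 8985 genes were called higher and 10.4% lower. Of 58 members, 25 were past 2-fold upwards and 3 past 2-fold downwards, and the background was 32.2% higher and 31.7% lower of 9514 genes. The median log2 difference was 0.88 over the members and -0.0032 over all genes. By complex, limma called 2 of 4 Pol I genes, 3 of 7 Pol II genes, 1 of 6 Pol III genes, 3 of 16 Mediator genes, 1 of 8 Gtf2 genes, 3 of 7 Gtf3 genes and 2 of 9 Taf genes higher. The single calls of Pol III and Gtf2 are near the 10.8% of all genes. Summed over 57 members the libraries held 1241 and 1361 FPKM at the early stage and 1988 and 2025 FPKM at the late stage.

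In Pol I, Polr1e, a subunit of the initiation-competent enzyme, was at 0.819 and 2.49 FPKM in the early libraries and 26.9 and 39.5 FPKM in the late ones (limma log2 difference 3.74, SE 0.42, Benjamini-Hochberg adjusted p = 0.000283). Polr1b, the second largest subunit, was at 0.336 and 0.631 FPKM and then at 12.8 and 8.19 FPKM (2.93, SE 0.75, limma adjusted p = 0.0218). No early library reached a late one for either gene. Polr1d, a small subunit shared with Pol III, had 62.6 and 49.4 FPKM early and 107 and 101 FPKM late. Polr1a, the catalytic subunit, stayed low at 0.642 and 1.34 FPKM early and 2.25 and 3.28 FPKM late. Neither of these last genes passed the test.

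In Pol II the small shared and assembly subunits made up the rise. Polr2j, which pairs with Polr2c in the assembly core, went from 16.2 and 17.9 FPKM to 140 and 117 FPKM (limma log2 difference 2.84, SE 0.45, Benjamini-Hochberg adjusted p = 0.00188). Polr2e, present in all nuclear polymerases, went from 18.7 and 20.4 FPKM to 85.7 and 119 FPKM (2.31, SE 0.39, limma adjusted p = 0.00257). Polr2l, also shared by the nuclear polymerases, went from 16.7 and 22.3 FPKM to 98.1 and 105 FPKM (2.34, SE 0.48, limma adjusted p = 0.00749). All 3 lay between 16.2 and 22.3 FPKM in the early libraries and between 85.7 and 140 FPKM in the late ones. Polr2c had 85.6 and 57.9 FPKM early and 185 and 253 FPKM late, Polr2i 11.9 and 11.4 FPKM and then 27.6 and 23.8 FPKM, and both were past 2-fold without an adjusted call. Polr2b, the second largest subunit, had 9.39 and 10.0 FPKM early and 23.4 and 15.0 FPKM late. Polr2m, a Pol II-associated protein that makes transcription depend on Mediator, had 6.36 and 6.66 FPKM early and 3.48 and 5.55 FPKM late.

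Among factors of Pol III, limma called 3 TFIIIC genes and 1 polymerase gene higher. Gtf3c4 and Gtf3c5, subunits of TFIIIC, the factor that recognises promoters of transfer RNA genes, were barely detected there: Gtf3c4 had 0.564 and 0 FPKM and then 23.1 and 17.2 FPKM (limma log2 difference 4.07, SE 0.98, Benjamini-Hochberg adjusted p = 0.0158). Gtf3c5 had 0 and 0.614 FPKM and then 15.5 and 20.1 FPKM (3.88, SE 0.61, limma adjusted p = 0.00193). Gtf3c6, the smallest TFIIIC subunit, had 3.99 and 1.92 FPKM and then 32.0 and 22.1 FPKM (2.86, SE 0.88, limma adjusted p = 0.0461). The late libraries exceeded the early ones in all 3, which was a condition of naming Gtf3c4 and Gtf3c5. Gtf3c2, another TFIIIC subunit, had 20.8 and 13.5 FPKM early and 19.0 and 14.5 FPKM late. Gtf3c1, the largest TFIIIC subunit, had 1.25 and 2.96 FPKM early and 7.32 and 6.57 FPKM late, past 2-fold without a call. Gtf3a, which binds the gene of the small ribosomal RNA, stayed at 5.85 and 5.58 FPKM early and 4.57 and 4.99 FPKM late. Within the polymerase itself Polr3b, the second largest subunit, rose from 1.72 and 0.327 FPKM to 8.56 and 9.45 FPKM (2.40, SE 0.57, limma adjusted p = 0.0151), and it was the one Pol III gene called. Polr3k, a small subunit used in termination, already had 25.7 and 22.4 FPKM early and had 29.0 and 51.3 FPKM late, and Polr3c, of the initiation trimer, lay within its late values of 5.93 and 21.9 FPKM in both early libraries.

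In Mediator 3 genes were called higher by limma and none lower. Med29, a subunit of its tail, had the largest difference of all members on the log2(FPKM + 1) scale, with 4.15 and 2.02 FPKM in the early libraries and 153 and 145 FPKM in the late ones (limma log2 difference 5.25, SE 0.32, Benjamini-Hochberg adjusted p = 2.45e-05). Med27, its neighbour in the complex, went from 63.5 and 29.9 FPKM to 233 and 198 FPKM (2.27, SE 0.44, limma adjusted p = 0.00583). Med25, which binds activators, went from 11.4 and 8.07 FPKM to 27.1 and 38.6 FPKM (1.65, SE 0.47, limma adjusted p = 0.0332). For these 3 the early and late libraries lay apart. Med19, which links Mediator to Pol II, had 13.8 and 22.5 FPKM early and 6.92 and 0.117 FPKM late, and Med28, a head subunit, had 122 and 147 FPKM early and 70.7 and 66.8 FPKM late. Both were lower in every late library, which was a condition of naming them, with limma adjusted p = 0.121 for Med19 and 0.336 for Med28. Med17, the scaffold of the head, had 19.0 and 23.6 FPKM early and 14.1 and 10.7 FPKM late, and Med23, a tail subunit, had 12.4 and 23.6 FPKM early and 10.1 and 8.75 FPKM late. Of the kinase module paralogs, Med13l had 9.08 and 7.27 FPKM early and 4.05 and 7.97 FPKM late, and Med12l stayed at 1.40 FPKM or lower.

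The one member called lower was Gtf2b, the factor TFIIB that bridges TBP and Pol II. It was the most abundant member at the early stage, with 234 and 393 FPKM, and had 52.1 and 22.0 FPKM at the late stage (limma log2 difference -3.12, SE 0.82, Benjamini-Hochberg adjusted p = 0.0237). Gtf2h1, a core subunit of the DNA-opening factor TFIIH, rose from 39.6 and 29.5 FPKM to 109 and 93.5 FPKM (1.54, SE 0.39, limma adjusted p = 0.0214). Gtf2h3 of the same complex had 8.51 and 7.06 FPKM and then 14.8 and 16.6 FPKM, and the small TFIIA subunit gene Gtf2a2 had 20.7 and 19.7 FPKM and then 26.2 and 24.4 FPKM. In the TFII-I family of DNA-binding factors, Gtf2ird1 had 32.1 and 32.6 FPKM early and 28.5 and 11.6 FPKM late, and Gtf2i stayed at 0.852 and 0.317 FPKM early and 1.77 and 2.05 FPKM late. Gtf2ird2 had no read in either early library and 1.46 and 5.27 FPKM in the late ones, at least 71.5-fold higher when 3 reads over the early column are taken as the limit. That limit covers read counting and not the spread between libraries. How reads matching more than 1 of these related genes were counted is not given in the sources used here.

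Among the Taf genes, Taf5l, a subunit of the SAGA coactivator rather than of TFIID, rose from 7.10 and 5.01 FPKM to 32.9 and 31.3 FPKM (limma log2 difference 2.25, SE 0.37, Benjamini-Hochberg adjusted p = 0.00222). Taf1a, Taf1c and Taf1d belong to SL1, the TBP complex of Pol I. Taf1d rose from 7.73 and 7.27 FPKM to 25.7 and 25.9 FPKM (1.66, SE 0.50, limma adjusted p = 0.04). Taf1c had no read early and 7.86 and 3.58 FPKM late, at least 68.4-fold higher against 3 reads over the early column, and Taf1a had 29.6 FPKM per library early and 71.8 FPKM late without separated libraries. No TFIID gene was called by limma without centring, or by limma-voom. Taf3, which reads a histone methylation mark of promoters, had 76.5 and 74.9 FPKM early and 45.9 and 40.9 FPKM late, and Taf4, a TFIID scaffold, had 42.5 and 37.8 FPKM early and 32.5 and 21.9 FPKM late. Taf10 had 2.79 and 4.70 FPKM early and 21.7 and 15.9 FPKM late, past 2-fold without an adjusted call.

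Limma-voom on the recovered reads called 11 members in this comparison (16.6% of all genes), 9 of them also called by limma: Gtf2b, Gtf2h1, Gtf3c4, Gtf3c5, Med27, Med29, Polr1e, Polr2j and Polr2l. Gtf3c6, Med25, Polr1b, Polr2e, Polr3b, Taf1d and Taf5l were called by limma alone, and Gtf2ird2 and Taf1c by limma-voom alone. After centring on library medians limma again called 15 higher and 1 lower, with Taf10 and Taf1c in place of Gtf2h1 and Med25. The share of all genes called after centring was not counted, here and in the comparisons below, so these splits have no background. Leaving out a library lowered the limma count from 16 to 10 without late control library A, to 9 without late control library B, to 10 without early library A and to 8 without early library B. Of the members, 17 overlap another coding gene on the opposite strand, Polr1e, Polr2c, Polr2i, Polr2j, Taf1d and Taf5l among them, and whether reads were assigned by strand is not given in the sources used here.

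**Figure D1:**
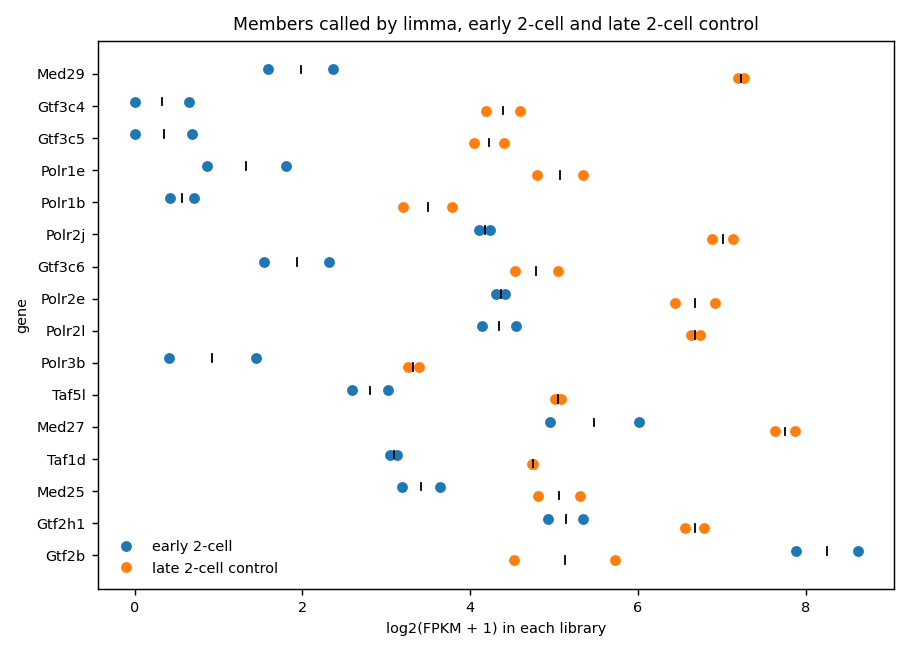
The 16 members called by limma between the early 2-cell stage (blue) and the late 2-cell control (orange), as log2(FPKM + 1) in each of 2 libraries, with a tick at the mean of each group. In 15 genes, Med29 at the top, both late points lie to the right of both early points, and in Gtf2b at the bottom they lie to the left.

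Of 69 listed genes that work with the machinery without being part of the symbol rule, 39 were in the rows. Of 38 tested between the early and late 2-cell stages, limma called 7 higher and 1 lower, beside the 10.8% and 10.4% of all genes, and past 2-fold were 20 upwards and 6 downwards, beside 32.2% and 31.7%. Polymerase assembly and C-terminal domain enzymes gave 4 of 9 higher: Gpn3, a GTPase for nuclear import of Pol II, had 0.856 FPKM per library early and 79.5 FPKM late, Ssu72, a phosphatase of the Pol II tail, 8.59 and then 110 FPKM, and Gpn1 and Rprd1b were the others. Among Pol I and Pol III factors, Snapc2, which serves small nuclear RNA promoters, had 1.84 and then 102 FPKM per library, and Snapc4 was also called. Cdk9, the kinase that releases paused Pol II, had 2.53 FPKM per library early and 82.2 FPKM late (limma log2 difference 4.56, SE 1.01, Benjamini-Hochberg adjusted p = 0.0107). Rtf1, an elongation factor, fell from 59.9 to 14.3 FPKM per library (-1.99, SE 0.44, limma adjusted p = 0.0112), and Tbpl2, the oocyte form of TBP, had 35.2 and then 3.82 FPKM per library with an adjusted p of 0.0948.

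**Figure D2:**
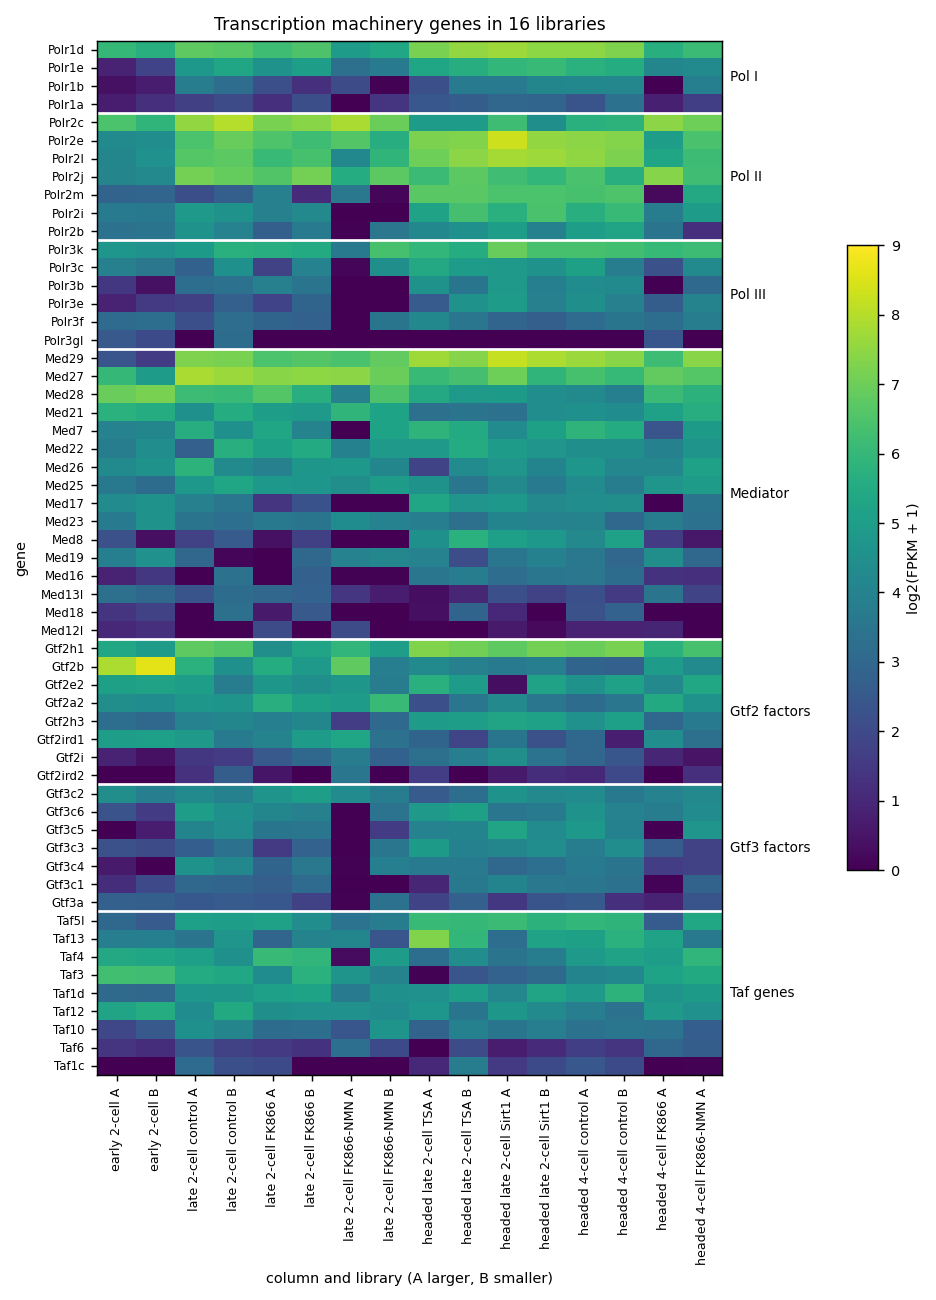
Colour gives log2(FPKM + 1), from 0 (dark) to 9 (yellow), for 57 members (rows, by complex) in 16 libraries (columns, A the larger and B the smaller library; Taf1a is left out because its libraries could not be separated). Dark cells stand for values near 0, which gather in the FK866-NMN libraries of the late 2-cell stage, and the Polr2m row is bright in the 6 libraries headed late 2-cell TSA, late 2-cell Sirt1 and 4-cell control.

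In late 2-cell embryos, FK866 against control asks what loss of NAD+ salvage did to these transcripts, and no member passed limma's test. Limma called 0 of 57 members and 0.914% of 8530 genes, with an unadjusted p under 0.05 in 3 members (5.26%) and in 10.5% of all genes. Limma-voom called 1 member, Gtf2h1, and 3.04% of genes. By size alone, past 2-fold, 3 of 58 members were higher and 11 lower, where the background was 18.1% and 20% of 9022 genes, and the median log2 difference was -0.34 over members and -0.065 over all genes. Gtf2h1, the TFIIH subunit that had risen to 109 and 93.5 FPKM in the late control, was at 20.6 and 37.6 FPKM with FK866 (limma log2 difference -1.82, SE 0.39, Benjamini-Hochberg adjusted p = 0.079, limma-voom adjusted p = 0.0271). Neither FK866 library came near a control library, though members named by rank were picked for libraries that do not overlap.

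The other members named by rank did not pass either test. Med17, the Mediator head scaffold, had 14.1 and 10.7 FPKM in control and 1.56 and 3.81 FPKM with FK866 (limma adjusted p = 0.124), and Polr1b, the second largest Pol I subunit, 12.8 and 8.19 FPKM and then 3.61 and 1.31 FPKM (0.416). Taf4 had 32.5 and 21.9 FPKM in control and 66.9 and 60.0 FPKM with FK866 (limma adjusted p = 0.658), Gtf2i 1.77 and 2.05 FPKM and then 4.67 and 7.08 FPKM (0.416), and Gtf3c2, a TFIIIC subunit, 19.0 and 14.5 FPKM and then 24.5 and 31.1 FPKM (0.503). Members were named by rank only where the control and FK866 libraries did not overlap, so their separation gives these 5 genes no support. Being past 2-fold with libraries apart held for 11 of 57 members, 2 higher and 9 lower, and for 20.4% of all genes. Polr3gl, an alternative Pol III subunit, had 0 and 7.97 FPKM in control and no read with FK866, so its control libraries alone disagree. Without FK866 library B limma called 2 members, and without either control library 1.

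**Figure D3:**
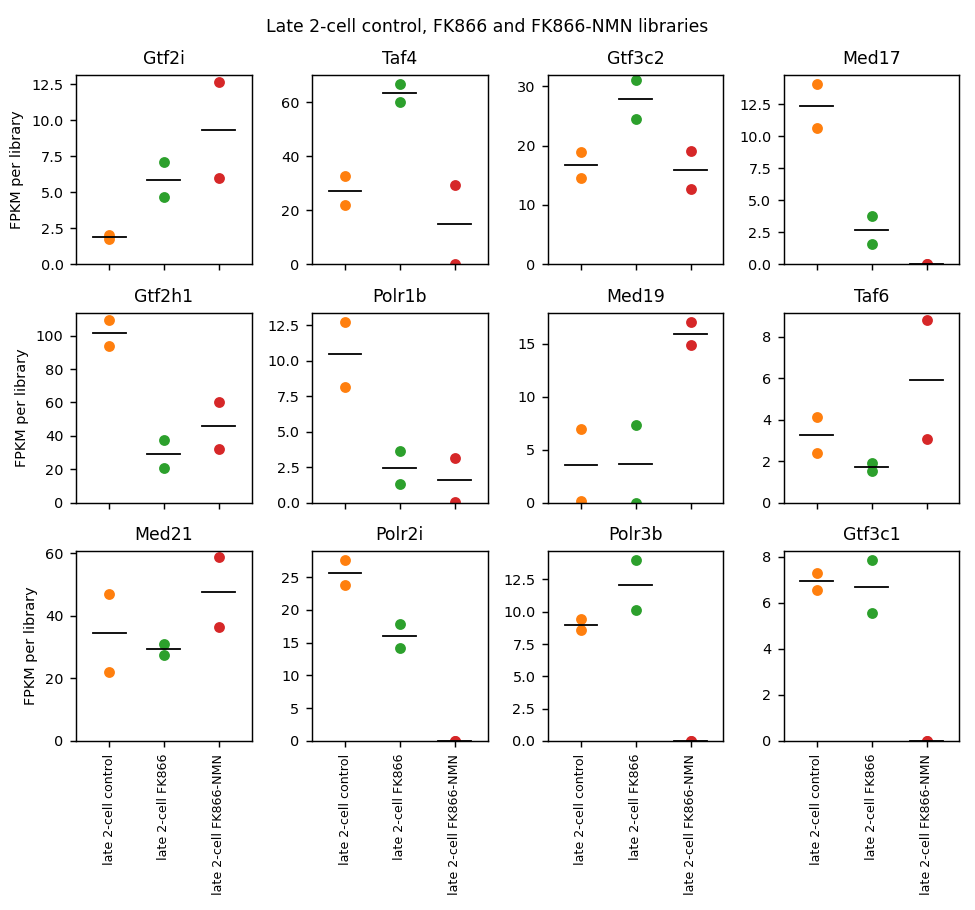
FPKM in each library (points; 2 per group, coinciding where 1 is seen) and the mean (line) for the 12 members named by rank in the late 2-cell FK866 and FK866-NMN comparisons, in control (orange), FK866 (green) and FK866-NMN (red) embryos, each panel on its own axis from 0. Gtf2h1, Med17 and Polr1b are lower with FK866 than in control in every library, as naming by rank required. Polr2i and Polr3b are at 0 in both FK866-NMN libraries.

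With NMN added to FK866, the share of members past 2-fold downwards was near that of all genes, 29.8% against 33.3%. Upwards it was smaller, 5.26% against 18.9%. The FK866-NMN libraries missed many genes. Of 4485 genes with a mean of at least 5 FPKM, 23.8% were at 0 in FK866-NMN library A and 13.6% in library B, against 3.88% to 7.18% in the 6 libraries of the early 2-cell, late control and FK866 groups. Of 47 members at that mean, 10 and 5 were at 0 in the FK866-NMN libraries and at most 1 in those 6. The part of these zeros in the differences was not tested. Limma called 0 of 56 members higher and 3 lower (background 0.517% and 3.69% of 8122 genes), and past 2-fold 3 of 57 were higher and 17 lower (18.9% and 33.3% of 8605 genes). The median log2 difference was -0.41 over members and -0.24 over all genes. After each library was centred on its median, limma called 6 members higher (Gtf2h1, Med19, Med21, Med23, Med29 and Taf6) and 1 lower (Polr2i). Polr2i was called lower in both fits, and the 6 members called higher had no limma call before centring. The share of all genes after centring was not counted, so this split shows nothing particular to the members.

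Polr2i, a Pol II subunit used in start site choice and proofreading, had 14.2 and 17.9 FPKM with FK866 and no read in either FK866-NMN library, at least 89.4-fold lower against 3 reads over that column (limma adjusted p = 0.00282). Polr3b had 14.0 and 10.1 FPKM and then no read, at least 292-fold lower (limma adjusted p = 0.00917). These folds are limits of read counting only and do not cover the spread between libraries: Gtf2ird2 had 562 and 0 reads in the FK866-NMN libraries. Gtf3c5 had 10.4 and 10.6 FPKM with FK866 and 0 and 2.05 FPKM with NMN added (limma log2 difference -2.72, SE 0.61, Benjamini-Hochberg adjusted p = 0.0408). Limma-voom called 7 members, all lower (12.6% of genes): Polr2i and Polr3b again, and Gtf3c1, Med8, Med17, Polr3e and Taf4. In a fit of the 4 libraries of these columns alone, limma called none of the 56. Without FK866-NMN library B, the limma count rose to 17 and the count past 2-fold from 20 to 36.

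The 3 members named for a higher value did not pass the test. Med19 had 0 and 7.29 FPKM with FK866 and 14.9 and 17.1 FPKM with NMN added (limma adjusted p = 0.254), Med21, of the middle module, 31.1 and 27.6 FPKM and then 58.9 and 36.4 FPKM (0.427), and Taf6, a histone-fold TFIID subunit, 1.92 and 1.51 FPKM and then 8.79 and 3.05 FPKM (0.335). Gtf2h1, the member called by limma-voom with FK866, had 60.0 and 31.9 FPKM with NMN added, overlapping its 20.6 and 37.6 FPKM with FK866, and limma called it higher only after centring on library medians. Gtf3c1 had 5.56 and 7.86 FPKM with FK866 and 0.00983 and 0.0156 FPKM with NMN added, and Med17 had no read with NMN added.

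The 3 columns headed late 2-cell TSA, late 2-cell Sirt1 and 4-cell control, which the tables name 4-cell control, 4-cell FK866 and 4-cell FK866-NMN, had alike levels of several members, and all 3 were compared with the same late 2-cell control. Polr2m was the clearest: 3.48 and 5.55 FPKM in the late control, 103 and 102 FPKM in the column headed late 2-cell TSA, 86.1 and 85.9 FPKM in that headed late 2-cell Sirt1 and 83.3 and 90.6 FPKM in that headed 4-cell control. Its limma log2 differences were 4.26 (SE 1.07, Benjamini-Hochberg adjusted p = 0.0228), 4.01 (adjusted p = 0.0356) and 4.02 (adjusted p = 0.0409). Limma-voom called it in the columns headed TSA and Sirt1 and not in that headed 4-cell control (adjusted p = 0.0593). Early 2-cell, late control, FK866 and FK866-NMN libraries held 14.2 FPKM of Polr2m at most.

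Polr2c, the assembly subunit of Pol II, was lower in the same 3 columns. It had 185 and 253 FPKM in the late control, 29.4 and 29.7 FPKM in the column headed late 2-cell TSA, 71.9 and 21.4 FPKM in that headed Sirt1 and 51.1 and 54.9 FPKM in that headed 4-cell control (limma adjusted p = 0.00584, 0.0147 and 0.0364). Taf3 had 45.9 and 40.9 FPKM in the late control and 0.0457 and 4.36 FPKM, 6.12 and 7.60 FPKM, and 15.7 and 17.5 FPKM in those columns, with limma calls in the first and second (adjusted p = 0.00389 and 0.0443). Med8, a head subunit of Mediator, had 2.35 and 5.04 FPKM in the late control and 22.0 and 52.2 FPKM, 32.4 and 27.1 FPKM, and 17.8 and 34.2 FPKM, with calls in the first and second (0.0247 and 0.039). Gtf2i had 1.77 and 2.05 FPKM and then 9.10 and 13.5 FPKM, 21.0 and 9.74 FPKM, and 6.77 and 4.25 FPKM, again called in the first and second (0.0328 and 0.0215). The low sums of 2-cell stage markers given above belong to these same libraries. The 6 oocyte and maternal markers with a row (Zp2, Zp3, Mos, Nlrp5, Ooep and Tle6, of 10 listed) summed to 231 and 223 FPKM in the late control, 34.0 and 40.1 FPKM in the column headed TSA, 113 and 53.6 FPKM in that headed Sirt1, and 69.9 and 76.1 FPKM in that headed 4-cell control. In the column headed TSA Mos and Ooep had no read in either library. Of the 4485 genes with a mean of at least 5 FPKM, 17.8% and 11.7% were at 0 in the libraries headed TSA, 12.7% and 9.01% in those headed Sirt1, and 5.69% and 8.47% in those headed 4-cell control, beside 6.29% and 3.88% in the late control, and none of 47 members was at 0 in these 8 libraries. The part of these markers and zeros in the differences was not tested.

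By counts, the column headed late 2-cell TSA had 3 members called higher (6.37% of 8178 genes) and 6 lower (12%) by limma: Gtf2i, Med8 and Polr2m, and Gtf2a2, Med13l, Med21, Med27, Polr2c and Taf3. Past 2-fold were 13 of 57 members upwards and 12 downwards, beside 23.2% and 41.3% of 8648 genes. The median log2 difference was 0.18 over members and -0.44 over all genes. After centring on library medians the split was 15 higher and 2 lower, with the share of all genes not counted. Limma-voom called 6 members (20.8% of genes), 5 of them shared: Med13l, Med27, Polr2c, Polr2m and Taf3. The column headed late 2-cell Sirt1 had 13 members past 2-fold upwards and 15 downwards (24.3% and 36.6% of 8779 genes), 5 called by limma (14% of 8292 genes) and 7 by limma-voom (14.6%), with Gtf2i and Polr2m in both, and centring moved the limma split from 3 higher and 2 lower to 7 higher and 0 lower. The column headed 4-cell control had 10 members past 2-fold upwards and 9 downwards (24.2% and 33.8% of 8868 genes), 2 called by limma (11.2% of 8382 genes), Polr2m and Polr2c, and limma-voom called Med27 alone (7.55%). After centring both limma calls of that column were higher, Polr2m and Med8. These counts leaned on single libraries: the limma count of the column headed TSA went from 9 to 3 without its library A and to 5 without either late control library. That of the column headed Sirt1 went from 5 to 2 without its library A, 3 without its library B, 2 without late control library A and 1 without late control library B. That of the column headed 4-cell control went from 2 to 1 without late control library A and to 0 when any of the other 3 was left out.

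Other members named by rank in these columns included Taf13, a TFIID histone-fold subunit, with 9.96 and 25.0 FPKM in the late control and 154 and 62.0 FPKM in the column headed late 2-cell TSA (limma adjusted p = 0.0611, limma-voom adjusted p = 0.0492). Med13l, the kinase module paralog, had 4.05 and 7.97 FPKM in the late control and 0.255 and 0.943 FPKM there (limma log2 difference -2.11, SE 0.54, Benjamini-Hochberg adjusted p = 0.0251). Med28 had 70.7 and 66.8 FPKM in the late control and 28.9 and 20.1 FPKM in the column headed Sirt1 without a call. In the column headed 4-cell control, Polr3e, a Pol III subunit, had 21.5 and 14.3 FPKM beside 2.29 and 5.83 FPKM in the late control, Gtf2b 6.41 and 5.77 FPKM beside 52.1 and 22.0 FPKM, and Gtf2ird1 7.29 and 0.681 FPKM beside 28.5 and 11.6 FPKM. None of these 3 was called, with limma adjusted p of 0.128, 0.107 and 0.133.

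**Figure D4:**
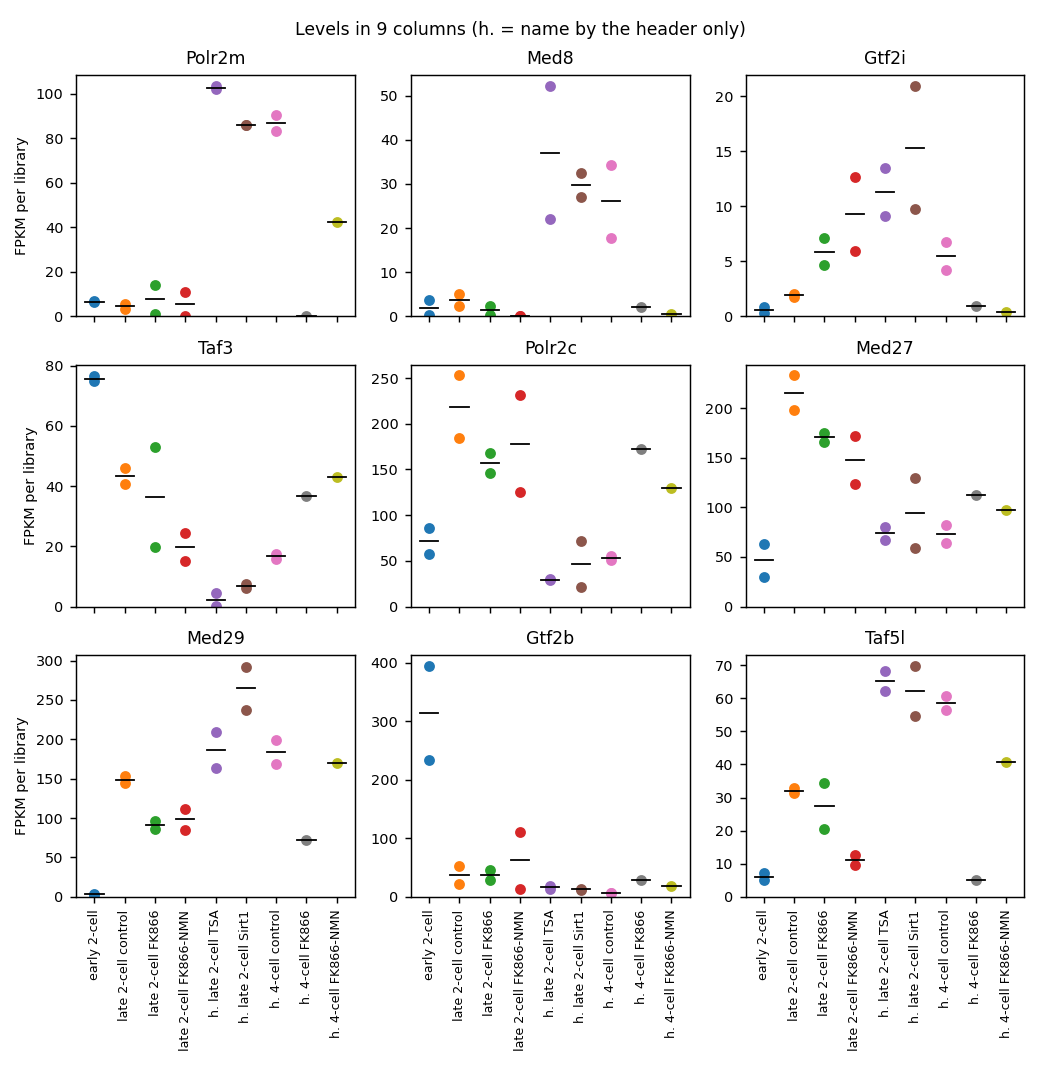
FPKM in each library (points) and the mean (line) of 9 members in the 9 columns, each panel on its own axis from 0, with h. marking the 5 columns in doubt, called here by their headers. Against the late 2-cell control, Polr2m, Med8 and Gtf2i are higher and Taf3, Polr2c and Med27 lower in every library headed TSA, Sirt1 and 4-cell control, Med29 and Gtf2b separate the early 2-cell column from the rest, and Taf5l is at 5.08 FPKM in the single library headed 4-cell FK866.

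The column headed 4-cell FK866 held 1 library, which the tables would name late 2-cell TSA, and 4 of 47 members with means of at least 5 FPKM had no read in it (8.51%, beside 6.09% of 4485 genes). Gtf3c5, Med17, Polr1b and Polr3b were at 0 there, beside 17.8, 12.4, 10.5 and 9.01 FPKM per library in the late 2-cell control, and all 4 were called lower by limma and by limma-voom. Against 3 reads of that library, a limit of read counting only, the differences were at least 127-fold for Gtf3c5, 81.9-fold for Med17, 94.9-fold for Polr1b and 74.0-fold for Polr3b. Polr2e (31.4 FPKM beside 85.7 and 119 FPKM) and Taf5l (5.08 FPKM beside 32.9 and 31.3 FPKM) were called by limma alone, and Taf1c by limma-voom alone (5 members, 12.3% of genes), so limma had 0 of 56 members higher and 6 lower, where 8.6% and 3.92% of 8897 genes were called. By size, past 2-fold, 1 of 57 members was higher and 24 lower, beside 30.1% and 29.7% of 9420 genes, with a median log2 difference of -0.90 over members and 0.070 over all genes. Med19, Taf13 and Taf6 were the members named for a higher value, with 21.0, 35.2 and 7.30 FPKM. They lay above both late control libraries, as naming by rank required, and were not called. A single library cannot give its own spread, which the fit takes to be that of the other columns.

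The column headed 4-cell FK866-NMN, also 1 library and late 2-cell Sirt1 by the tables, had 4 of 57 members above and 12 below the late 2-cell control by over 2-fold (16.4% and 28.2% of 8622 genes). Limma called 0 of 56 members and 1.83% of 8146 genes, and limma-voom called 0 members and 5.01% of genes, with 3 members (5.36%) and 12.1% of all genes at an unadjusted limma p under 0.05. Polr2m was at 42.3 FPKM there, Polr3e at 15.1 FPKM and Taf4 at 59.9 FPKM, all above both late control libraries. Polr2b was at 1.36 FPKM, Taf1c at 0.0415 FPKM and Gtf3c4 at 2.40 FPKM, all under both late control libraries. All of these genes were named by rank, which required libraries on one side, so their separation is no support.

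At the 4-cell stage the difference between FK866 and control depended on the naming of the columns. By the headers the FK866 side is 1 library, taken in the fit to vary like the other columns. There, limma called 1 member higher (Gtf2a2) and 15 lower of 56, beside 18.9% and 10.9% of 8854 genes, and 42 of 57 members were past 2-fold, 12 higher (41.8% of 9368 genes) and 30 lower (32.9%). The 15 were Polr1b, Polr1d and Polr1e of Pol I, Polr2e, Polr2i, Polr2l and Polr2m of Pol II, Polr3b of Pol III, Med8, Med17 and Med29 of Mediator, and Gtf2h3, Gtf3c1, Gtf3c5 and Taf5l. Limma-voom called 11 (22.9% of genes), of which Gtf3c1, Gtf3c5, Med17, Polr1b, Polr1d, Polr2m, Polr3b and Taf5l were shared. After centring on library medians the split was 0 higher and 17 lower. Without library A of the column headed 4-cell control limma called 9 members, and without library B 8. Marker genes moved too: the 6 of 10 oocyte and maternal markers with a row summed to 69.9 and 76.1 FPKM in the libraries headed 4-cell control and to 324 FPKM in that headed 4-cell FK866, and the 2-cell stage markers to 37.5 and 42.0 FPKM and then 250 FPKM. Their part in the differences was not tested. By the tables, the 2 columns are those headed late 2-cell Sirt1 and late 2-cell TSA: 3 of 56 members were past 2-fold upwards and 6 downwards (21.2% and 13.4% of 7420 genes). There limma called 0 of 55 members and 0.214% of 7008 genes (at an unadjusted p under 0.05, 4 members or 7.27%, and 9.18% of genes), and limma-voom called 1, Polr2e (3.03%).

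Polr2m marked the contrast by headers most, with 83.3 and 90.6 FPKM in the column headed 4-cell control and 0.176 FPKM in that headed 4-cell FK866 (limma log2 difference -6.22, SE 1.31, Benjamini-Hochberg adjusted p = 0.00723). Med17 had 20.4 and 21.0 FPKM and no read, at least 137-fold lower, and Gtf3c5 26.9 and 14.4 FPKM and no read, at least 147-fold lower. Gtf2a2, the small subunit of TFIIA, was the member called higher, with 8.03 and 10.5 FPKM and then 42.7 FPKM (2.10, SE 0.68, limma adjusted p = 0.0425). Gtf2b and Gtf2ird1 had 29.5 and 20.2 FPKM in the column headed 4-cell FK866, without a call. Both lay above the libraries headed 4-cell control, as naming by rank required. By the tables the members named by rank were Gtf3c2, Taf3 and Polr3k with FK866 above control and Taf13, Gtf3c6 and Polr3f below, with limma adjusted p from 0.279 to 0.719.

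Adding NMN to FK866 at the 4-cell stage gave, by the headers, 5 of 53 members called higher and none lower by limma (3.33% and 7.38% of 8429 genes): Gtf3c5, Med17, Polr1b, Polr3b and Taf5l. These are members at 0 or 5.08 FPKM in the column headed 4-cell FK866, and they had 24.8, 10.1, 13.8, 7.35 and 40.8 FPKM in the column headed 4-cell FK866-NMN. Each column is 1 library with no spread of its own, so these p-values take each to vary like the libraries of the other columns, and they are not a replicated comparison. Limma-voom called 5 members, Polr2m in place of Taf5l (16.1% of genes). Of 54 members 17 were past 2-fold upwards and 8 downwards (25% and 34.7% of 8929 genes). By the tables, with the columns headed 4-cell control and late 2-cell Sirt1, 3 of 56 members were past 2-fold upwards and 1 downwards (14.8% and 11.5% of 7754 genes). Limma then called 0 of 55 members and 0.232% of 7332 genes, with 1 member (1.82%) and 5.4% of genes at an unadjusted p under 0.05, and limma-voom called 0 members and 0 genes. The members named for a lower value by the headers, Polr2b, Med13l and Taf13, had 10.0, 10.1 and 35.2 FPKM in the column headed 4-cell FK866 and 1.36, 2.62 and 11.3 FPKM in that headed 4-cell FK866-NMN. By the tables Taf4 (9.93 and 12.7 FPKM, then 27.5 and 35.8 FPKM), Taf3 and Med7 were named for a higher value and Gtf2i, Gtf2b and Taf12 for a lower one.

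**Figure D5:**
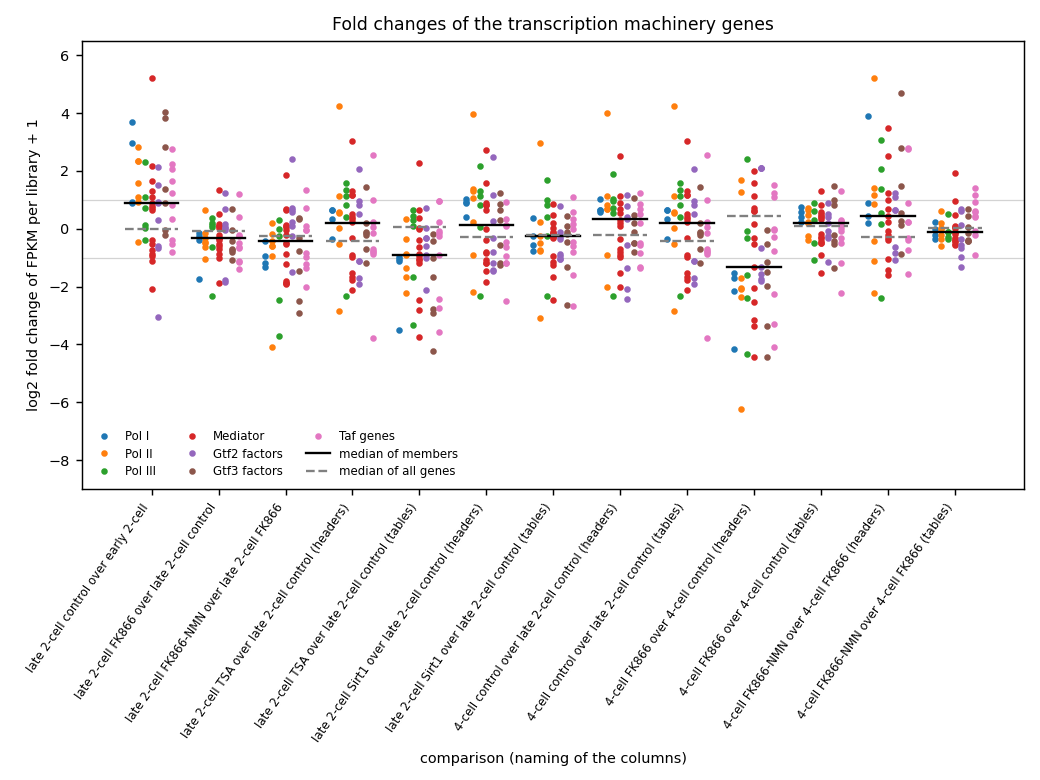
Log2 fold changes of FPKM per library with 1 added, 1 point per member and coloured by complex, for 13 comparisons and namings, with the median of the members (solid line), the median of all genes tested (dashed line) and grey lines at 2-fold. The members' median lies above that of all genes from the early to the late 2-cell stage (0.88 and -0.0032), and below it for the column headed 4-cell FK866 against that headed 4-cell control (-1.32 and 0.42).

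Levels differed widely within each complex, although subunits of 1 complex are present in equal copies in the assembled enzyme. Averaged over the 9 columns, FPKM, a level per length, was highest for Med29 (135), Polr2c (117), Med27 (115), Polr2e (107) and Polr1d (102). Their order changed between columns: Gtf2b led at the early 2-cell stage with 314 FPKM per library, Polr2c and Med27 in the late 2-cell control with 219 and 216 FPKM, and Med29 in the columns headed late 2-cell TSA and Sirt1 with 187 and 265 FPKM. Polr2c and Med27 overlapped in the late control (185 and 253 FPKM, 233 and 198 FPKM), so their order there is within the spread. Med29 overlapped Polr1d in the column headed TSA (209 and 164 FPKM, 144 and 184 FPKM). It overlapped Polr2e in that headed Sirt1 (292 and 237 FPKM, 318 and 187 FPKM), so its lead in both is within the spread too. Large catalytic subunits sat far lower, with Polr1a at 9.13 FPKM or less and Polr2b at 37.2 FPKM or less in every library. Polr3gl was found in 4 of the 16 libraries and Med12l did not exceed 3.29 FPKM in any. Summed over 57 members, the libraries held 1557 and 1674 FPKM in FK866, 1294 and 1353 FPKM in FK866-NMN, and 1977 to 2471 FPKM in the 6 libraries headed late 2-cell TSA, Sirt1 and 4-cell control. The single libraries headed 4-cell FK866 and 4-cell FK866-NMN held 1363 and 1663 FPKM.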

How the data were processed

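Total RNA of pooled embryos was sequenced in 18 samples, 2 in each of 9 groups. The 24 CUT&Tag samples of the series were not analysed here. Per the methods of the study, the authors trimmed reads with Trim Galore, aligned them with HISAT2 to the mm10 mouse genome and counted them with featureCounts. The deposited FPKM values, fragments scaled by exon length and by mapped reads, were written by the authors in 1 column per group. Exon lengths from GENCODE M21 (15356 of 15737 genes) and the fixed steps between values gave back whole reads for 96.9% to 97.8% of values above 0 per column, and each value was split into the libraries it sums, 16 in all. A value counted where whole reads matched it within about the rounding of its last printed digit, with no other solution. Counting intervals cover counting error only and are not given.

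Values were tested as log2(FPKM + 1) with limma 3.58.1 (R 4.3.3; empirical Bayes with an intensity trend) in 1 fit of 11601 genes and 16 libraries with 7 residual degrees of freedom. A gene was tested where one of the columns compared reached 1 FPKM per library, p-values were two-sided, and the Benjamini-Hochberg threshold was 0.05. Counts past 2-fold use FPKM per library with 1 added and carry no test. Fold changes on this scale understate those of low genes. In simulated data with the same extra spread between libraries for every gene, the limma fit called more unchanged genes than its threshold allows. Limma-voom on the simulated reads did not, so limma-voom calls are given beside. The deposited libraries can differ more, as with 562 and 0 reads of Gtf2ird2 in late 2-cell FK866-NMN. The simulation therefore cannot show that limma-voom holds its threshold here. A gene with no read in a column was compared at 3 reads over that column. Folds given as at least a value therefore cover read counting and not the spread between libraries. The 3 members with the largest log2 difference in each direction, among those with at least 5 FPKM and all libraries on one side, were named for each comparison, beside landmark subunits, close relatives by symbol and the 5 members of highest mean level. Members were matched by symbol alone, but the rule and the lists were set with earlier results of these data known. Scripts ran in Python 3.11.15 with pandas 2.3.3, numpy 2.4.6 and matplotlib 3.10.9. Alternatives were pseudocounts of 0.1 and 5, no filter, each library left out, column names by the supplementary tables, limma-voom, centring on library medians, at least 50 reads, and the libraries of 2 columns alone.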

Additional observations from a re-analysis of the deposited data

Results flagged for a closer look

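Under the column headers, limma's interaction term called a difference between the 4-cell and the late 2-cell FK866 contrast in 4 of 57 members, with Benjamini-Hochberg adjustment over 11601 genes, of which 9.89% passed. The difference of the log2 effects, 4-cell minus late 2-cell, was -3.68 for Gtf3c5 (SE 0.97, adjusted p = 0.0428), -6.31 for Polr2m (SE 1.70, adjusted p = 0.0452), -4.71 for Polr3b (SE 0.90, adjusted p = 0.0113) and -3.03 for Taf5l (SE 0.58, adjusted p = 0.0112). With limma-voom the adjusted p was 0.0098 for Gtf3c5 and 0.00162 for Polr3b, and 0.0704 for Polr2m and 0.13 for Taf5l. The share of all genes that limma-voom called for this term was not counted, so its calls have no background. Limma-voom also called Med17 and Polr1b (log2 difference -7.29 and -7.60) and, in the other direction, Polr3gl (10.3). All of these and the 4 limma calls rest on the 1 library headed 4-cell FK866. That library has no spread of its own and is taken to vary like the other columns, and Gtf3c5, Polr3b, Med17 and Polr1b have no read in it. With columns named by the supplementary tables, 0 of 57 members and 0 genes passed limma's test, 3 members (5.26%) and 7.15% of genes had an unadjusted p under 0.05, and the differences were 1.46 for Gtf3c5, -0.34 for Polr2m, -0.045 for Polr3b and 0.19 for Taf5l.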

How the results depend on the processing

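No paired analysis was possible because the deposited columns carry no replicate number and the libraries separated from them cannot be tied to the numbered samples. The limits are the 2 libraries or 1 per column, the doubt over 5 column names, and rows that cover part of the genome. Genes with no read in the FK866-NMN libraries and unstated handling of strand and shared reads are limits too. Settings with at least 50 reads, centring before limma, limma-voom or the libraries of 2 columns alone were added after the data were seen. Of the alternative counts, 93 stayed within 1.5 times the count reported and 47 moved further. With a pseudocount of 5 the members past 2-fold went from 14 to 5 for FK866 and from 20 to 11 for FK866-NMN against FK866 at the late 2-cell stage, from 25 to 16 for the column headed TSA, from 28 to 15 for that headed Sirt1, and from 25 to 16 for FK866-NMN against FK866 by the 4-cell headers. With a pseudocount of 0.1 the limma calls went from 3 to 6 for late FK866-NMN, from 9 to 5 for TSA, from 5 to 2 for Sirt1 and from 2 to 1 for 4-cell control against late control. Limma-voom gave 1 call for late FK866, 7 for late FK866-NMN and 1 for 4-cell control. The libraries of 2 columns alone gave 0 for late FK866-NMN, 4 for TSA, 3 for Sirt1 and 4 for 4-cell control, and centring gave 7 for late FK866-NMN and 17 for TSA. Naming columns by the tables gave 16 past 2-fold and 0 limma calls for Sirt1, 9 limma calls for 4-cell control, 9 past 2-fold and 0 calls for 4-cell FK866, and 4 past 2-fold and 0 calls for 4-cell FK866-NMN. Leaving out 1 library gave limma counts of 8 to 10 from the early to the late 2-cell stage (16 with all), 0 to 2 for late FK866, 2 to 17 for late FK866-NMN (22 to 36 past 2-fold), 3 to 6 for TSA, 1 to 3 for Sirt1, 0 to 1 for 4-cell control and 8 to 9 for 4-cell FK866, and no library could be left out for 4-cell FK866-NMN against FK866, with 1 on each side. Apart from fewer libraries, the cause of these moves was not tested.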
